A study of Oncorhynchus mykiss with 15 samples.

Results

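The groups labelled R3h and H3h are the pair in this rainbow trout (Oncorhynchus mykiss) liver series that carry the same time, 3 h, and they were compared across all genes of the deposited table. Each group has 3 libraries, so the comparison sets 6 of the 15 libraries against each other. The other groups, N, H12h and H24h with 3 libraries each, are given as background. They also enter the fit, so the spread behind each SE and p-value comes from all 15 libraries. All fish were 150 days old, and every library is liver RNA. The labels give no strain, sex or dose. The series title speaks of environmental hypoxia and its design of different durations. What N, H and R stand for is not written in the labels, and the code names are kept. A name such as R3h replicate 3 is the label's own number. Whether a group's 3 libraries are 3 fish is not stated, so each p-value covers only the spread within groups over the 15 libraries, which may be technical.

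Fish that meet low oxygen depend on the hypoxia-inducible factor (HIF), a transcription factor that prolyl hydroxylases mark for destruction while oxygen is present. Its targets include glycolytic enzymes, those same hydroxylases and mitochondrial receptors for autophagy. The liver also makes plasma and complement proteins, breaks down amino acids, clears foreign compounds, and answers infection through interferon, whose target genes restrict viruses and prepare peptides for presentation.

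Levels are FPKM, fragments scaled by the authors for gene length and library size. Differences are log2 fold changes (R3h over H3h) ± standard error (SE), fitted to raw counts with the quasi-likelihood test of edgeR. Of 34965 genes, 17502 were tested, those averaging 0.5 FPKM or more across all 15 libraries. A call is an adjusted p under 0.05 (Benjamini-Hochberg over all genes tested). The 6 libraries held 53.5 to 70.4 M counts. R3h was the less uniform group, with a median SD of 0.536 within the group against 0.323 in H3h (log2 CPM). This SD was 0.364 in N, 0.336 in H12h and 0.408 in H24h, and the fit pools the spread of all groups. R3h replicate 3 stood apart, with a mean correlation of 0.805 with the other R3h libraries. It had the smallest number of genes reaching 10 counts (21443) and the largest share of counts in its 10 most abundant genes (32.3%). Values without it are given wherever they bear on a result.

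Between R3h and H3h, 1564 genes (8.94%) were called, 1009 higher in R3h (5.77%) and 555 lower (3.17%). The genes higher in R3h held many ribosomal proteins and respiratory chain subunits, and those lower held interferon and cytokine signalling genes. At an unadjusted p under 0.05 there were 5107 genes. The median absolute log2 fold change of the calls was 1.79 and the smallest 0.76. At least 8-fold were 67 of the higher and 111 of the lower genes. The FPKM ranges of the groups did not overlap for 1396 of the calls (89.3%), against 35.8% of all genes tested (7.43% with R3h higher and 28.4% with R3h lower).

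The number of calls rested on the libraries and the spread used. With the spread estimated from the 6 libraries alone, edgeR called 0 genes, with 3728 at an unadjusted p under 0.05, while in those libraries without R3h replicate 3 it called 1836 (10.5%, of which 5.40% of all genes were higher and 5.09% lower). In the fit of 15 libraries the count was 11 without H3h replicate 1, 149 without H3h replicate 2, 689 without H3h replicate 3 and 544 without R3h replicate 1. It was 2873 without R3h replicate 2 and 2192 (12.5%) without R3h replicate 3. DESeq2 called 3447. The balance of directions rested on the scaling. With scaling for composition the median of all genes was -0.02 and 64.5% of the calls were higher. Scaled by library size alone the median was -0.45, with 868 calls (4.96%), 270 higher (1.54%) and 598 lower (3.42%). On log2(FPKM + 1) by limma it was -0.31, with 517 higher (2.95%) and 2385 lower (13.6%), 16.6% in all. Each direction below is therefore relative to the typical gene.

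**Figure D1:**
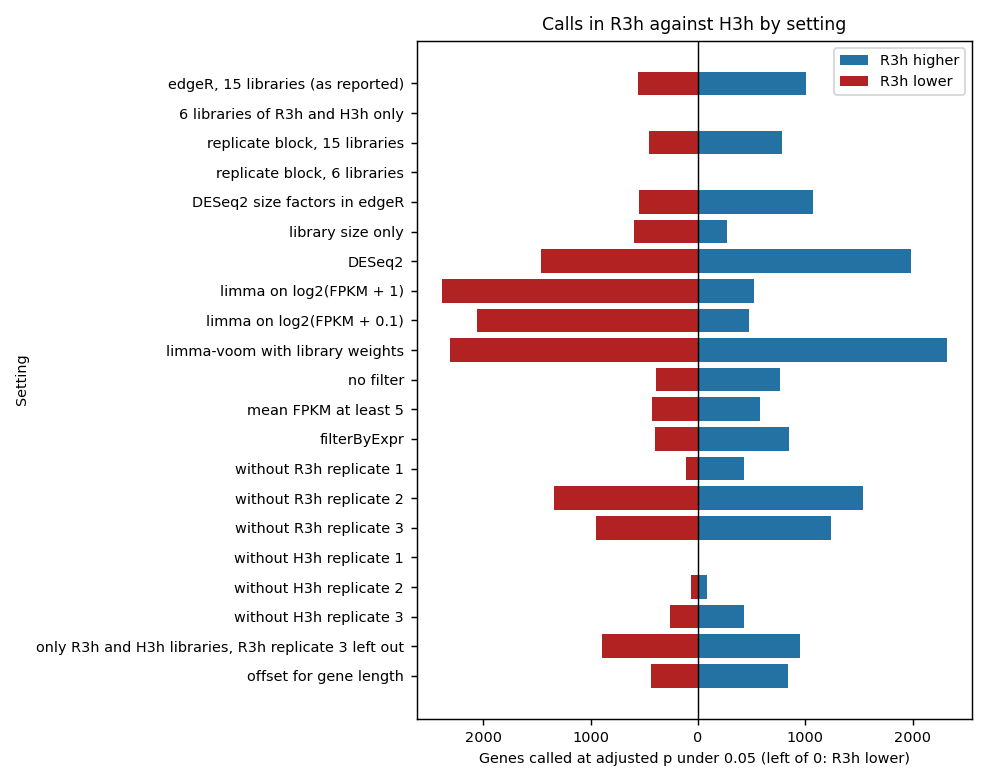
Number of genes called at an adjusted p under 0.05 under each setting (x axis, number of genes, R3h lower to the left of 0 and R3h higher to the right; y axis, the setting). The count is 1564 as reported, 0 with the 6 libraries alone and 11 without H3h replicate 1.

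Here and below, genes are ranked only among those with a name, at least 5 FPKM on average in the higher group and groups that do not overlap. Positions are in the deposited coordinates, whose build the sources used here do not name. The smallest p among those higher in R3h was that of rsl24d1 (110526432, chromosome 6, 63788307 to 63792109), which helps assemble the large ribosomal subunit. It stood at 124.1, 109.88 and 140.51 FPKM in the R3h libraries and at 39.04, 34.94 and 24.18 in H3h. All R3h libraries lay above all H3h libraries (2.37 ± 0.27, adjusted p = 0.00236). Its mean was 37.5 FPKM in N, 59.6 in H12h and 110.0 in H24h. A second copy of rsl24d1 (100750226, chromosome 26, 19022275 to 19025831) was also higher (2.0 ± 0.30, adjusted p = 0.00836), with 72.95 to 90.69 FPKM against 16.96 to 34.94.

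Tpi1b (110517847, chromosome 3, 33990921 to 33995689), the glycolytic enzyme triosephosphate isomerase, stood at 94.64, 75.49 and 99.89 FPKM in R3h and at 8.16, 12.32 and 10.03 in H3h. The groups lay far apart and R3h replicate 3 was not unusual (3.56 ± 0.44, adjusted p = 0.00428). The means of tpi1b were 9.1 FPKM in N, 58.9 in H12h and 49.5 in H24h. The metallothionein mt2 (100136731, chromosome 1, 24256974 to 24257681), which binds zinc and copper, stood at 2139.42, 2041.07 and 3928.82 FPKM against 255.16, 186.44 and 480.66. It was higher in every R3h library (3.56 ± 0.52, adjusted p = 0.0074), with a mean of 550.0 FPKM in N. CRP (110491696, chromosome 16, 21708292 to 21709863), a pentraxin of the plasma, stood at 518.72, 389.28 and 547.53 FPKM against 132.94, 167.2 and 112.81 (2.24 ± 0.33, adjusted p = 0.0074).

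Of these 12 genes, 4 encode mitochondrial proteins. The transcript si:dkey-222f2.8 (110528602), described in the table as a homolog of the cytochrome c oxidase assembly protein COX14, stood at 44.72, 36.29 and 61.64 FPKM against 11, 12.7 and 10.79 (2.47 ± 0.31, adjusted p = 0.00428). Atp5g3 (110527607), the membrane-ring subunit of ATP synthase, stood at 34.35, 31.83 and 44.03 FPKM against 8.07, 7.35 and 10.77 (2.5 ± 0.35). Atp5j (110527582), the coupling factor of the same enzyme, differed by 2.12 ± 0.32. Etfrf1 (110490297), a regulator of the electron transfer flavoprotein, differed by 2.13 ± 0.31. Also among the 12 were bbip1 (110485629), a subunit of the ciliary trafficking complex BBSome (2.66 ± 0.35), DCUN1D5 (100305274), which promotes the attachment of NEDD8 to cullins (1.61 ± 0.23), and dapl1-a (110520057; 2.14 ± 0.30). The adjusted p of these 6 genes after the COX14 homolog lay between 0.00582 and 0.00836.

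Genes lower in R3h with the smallest p included several of antigen processing and innate immune signalling. ERAP2 (110526886, chromosome 6, 28922211 to 28935482), an aminopeptidase that trims peptides for presentation, stood at 0.04, 0.21 and 0.07 FPKM in R3h and at 8.89, 3.88 and 4.34 in H3h. It was close to 0 in all R3h libraries (-5.24 ± 0.59, adjusted p = 0.00236), with means of 5.7 FPKM in N, 1.02 in H12h and 0.83 in H24h. ERAP1 (110535123, chromosome 11, 73747423 to 73768598), of the same family, stood at 2.0, 2.57 and 1.48 FPKM against 37.53, 10.38 and 22.76 (-3.07 ± 0.41, adjusted p = 0.00617). Ikbke (110493262, chromosome 17, 62138926 to 62161802), a kinase that activates interferon-inducing transcription factors, stood at 0.52, 0.94 and 0.9 FPKM against 12.55, 8.14 and 7.18 (-3.12 ± 0.44, adjusted p = 0.0074).

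A copy of TRIM25 (110491260, chromosome 16, 3196571 to 3202433), a ubiquitin ligase of viral RNA sensing, stood at 2.25, 1.73 and 0.94 FPKM against 22.7, 16.46 and 23.34 (-3.19 ± 0.49, adjusted p = 0.0102). Every R3h library of this TRIM25 copy was below every library of the other groups in the plot of selected genes. MPO (110532736, chromosome 9, 60294914 to 60304559), the myeloperoxidase of neutrophil granules, stood at 0.6, 0.92 and 0.52 FPKM against 36.8, 13.77 and 26.87 (-4.78 ± 0.76, adjusted p = 0.0115). Its mean in N was 25.7 FPKM, close to H3h. Bach1 (110510280), a repressor of heme oxygenase, differed by -2.43 ± 0.34 and psmg2 (110487801), a chaperone of proteasome assembly, by -2.67 ± 0.38 (adjusted p of both 0.0074). Gig2p (110525303) differed by -2.45 ± 0.41, Ggt5 (110537206), which cleaves glutathione conjugates, by -4.52 ± 0.73 and the lipid kinase pi4k2a (110485454) by -2.53 ± 0.42. Ogfrl1 (110528960; -3.14 ± 0.53) and si:ch211-212k18.7 (110500783; -2.45 ± 0.42) completed the 12, and the adjusted p of these last 5 genes was 0.0115. Of all the genes named so far, only rsl24d1 (110526432), tpi1b, the COX14 homolog, bbip1, ERAP1, ERAP2 and Ikbke remained called without H3h replicate 1.

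**Figure D2:**
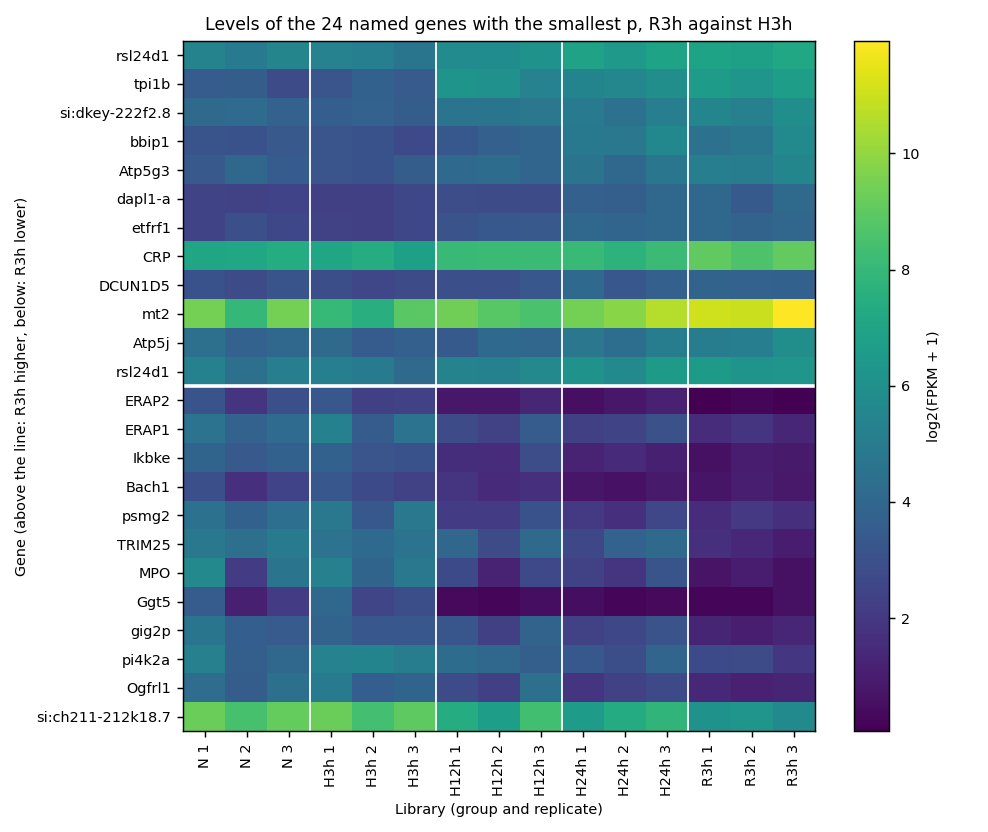
Level of the 12 genes with the smallest p in each direction (rows) in the 15 libraries (columns), as log2(FPKM + 1) on the colour scale. Groups that do not overlap were a condition for choosing these rows, and tpi1b goes from at most 12.32 FPKM in H3h to at least 75.49 in R3h.

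Among called genes ranked under the conditions above, the largest increases included cytochrome P450 genes of foreign-compound metabolism and genes near 0 in H3h. They also included genes that were expressed in H3h, such as C1QL4 and APCS. Cyp1a3 (100142632, chromosome 26, 24461372 to 24465313), a cytochrome P450 induced through the aryl hydrocarbon receptor, stood at 311.73, 368.81 and 65.88 FPKM in R3h against 2.67, 0.41 and 5.09 in H3h (6.96 ± 1.46, adjusted p = 0.0183). Its relative cyp1a1 (110526570, chromosome 6, 69562332 to 69566310) stood at 734.51, 508.5 and 197.93 FPKM against 21.02, 2.23 and 30.74 (5.24 ± 1.28, adjusted p = 0.0284). R3h replicate 3 was the lowest of its group for both, yet above all H3h libraries. Cyp1a3 averaged 15.9 FPKM in N and 319.0 in H24h, and cyp1a1 39.3 and 389.0.

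Nr0b2 (110496393, chromosome 18, 40158927 to 40160338), the nuclear receptor that represses bile acid synthesis, stood at 6.03, 9.78 and 10.9 FPKM against 0.1, 0.0 and 0.18 (6.91 ± 1.68, adjusted p = 0.0276). The N libraries of this copy disagreed (0.21, 41.16 and 0.73 FPKM, mean 14.0). C1QL4 (110494831, chromosome 17, 74146589 to 74148097) stood at 666.76, 405.07 and 287.51 FPKM against 6.03, 5.57 and 7.26 (6.63 ± 1.35, adjusted p = 0.0169). C1QL4 averaged 6.8 FPKM in N, and it varied within H12h (177.79, 5.36 and 530.44) and H24h (225.25, 335.83 and 17.13). Miox (110496439), which degrades inositol, stood at 292.28, 139.19 and 19.93 FPKM against 3.89, 2.31 and 6.84 (5.60 ± 0.92, adjusted p = 0.0115). Leap2 (100136188), a liver-made antimicrobial peptide, differed by 5.09 ± 0.91 and APCS (100136775), a pentraxin related to CRP, by 4.37 ± 0.97. APCS held 5804.85, 6439.67 and 547.73 FPKM in R3h and at most 349.71 in H3h, so replicate 3 was only just outside the H3h range.

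On the lower side, IFIT5 (110502627, chromosome 23, 23479078 to 23486001), an interferon-induced antiviral protein, stood at 0.17, 0.0 and 0.28 FPKM against 51.71, 14.53 and 22.81 (-7.06 ± 1.59, adjusted p = 0.0223). Noxo1 (110499182), an organizer of an NADPH oxidase, stood at 0.0, 0.0 and 0.12 FPKM against 20.4, 12.69 and 3.07 (-7.81 ± 2.14). TGFB3 (110522636), a growth factor of the TGF-beta family, differed by -5.86 ± 1.47, the receptor HCAR2 (110529595) by -5.11 ± 1.5, aste1 (110535340) by -4.89 ± 1.43 and si:ch211-152f22.4 (110499239) by -5.77 ± 1.15. The adjusted p of these lay between 0.0158 and 0.0489. Without R3h replicate 3 the difference of HCAR2 was -4.91, no longer called (adjusted p = 0.0854).

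IL6ST (110537852), the shared receptor subunit of the interleukin 6 family, had no read in any R3h library and 258, 114 and 119 counts in H3h. Against a floor of 3 counts over the R3h libraries, it was at least 158-fold lower (adjusted p = 0.0145). Of the other called genes with a name, 3 had no read in a group, all chosen after their values were seen. RBM38 was at least 68.5-fold lower in R3h, HGS at least 36.6-fold lower and GIMAP4 at least 271-fold higher.

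**Figure D3:**
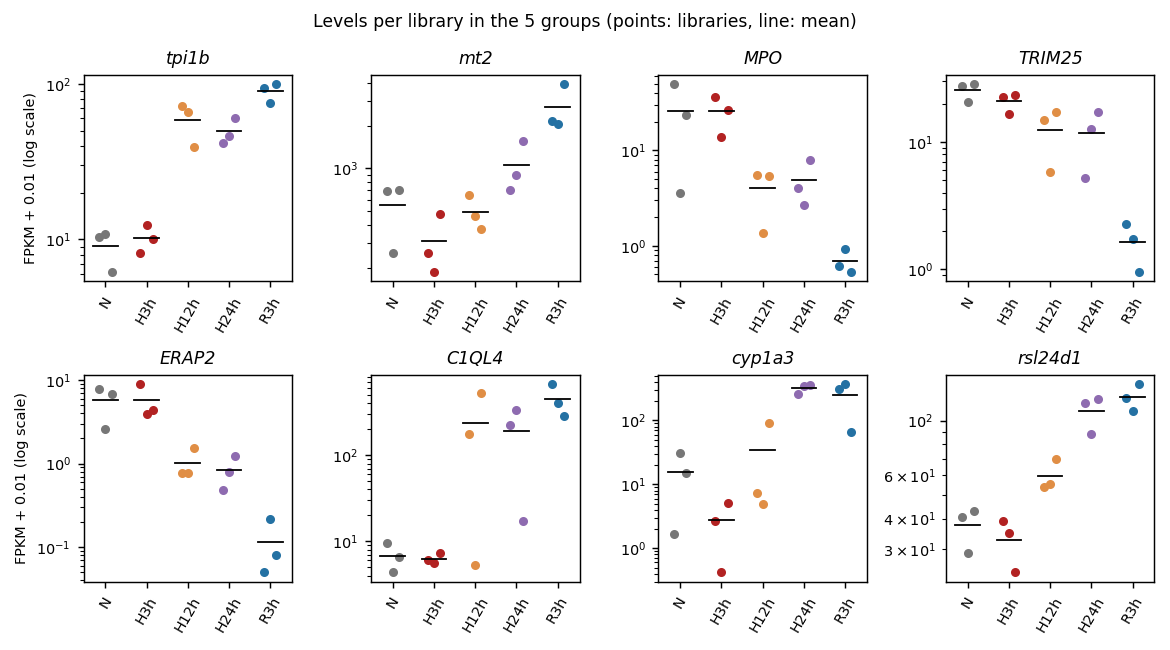
FPKM of 8 genes in every library of the 5 groups (y axis, FPKM + 0.01 on a log scale; x axis, group; points are libraries and lines group means). For C1QL4, the R3h libraries lie at 287.51 to 666.76 FPKM and the H3h libraries at 5.57 to 7.26.

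Sugar metabolism had calls in both directions. Of 40 tested glycolysis genes, 4 were higher and 2 lower (10% and 5%, against 5.77% and 3.17% of all genes). A second tpi1b copy (110489325) was higher (1.5 ± 0.40), while GPI (110499257; -1.18 ± 0.29) and PFKFB3 (110490358; -6.53 ± 1.63), the kinase that makes the main activator of glycolysis, were lower. These 3 genes fall outside the naming rule and were chosen after their values were seen.

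Glycogen genes showed calls in both directions, 3 higher and 2 lower of 32 (9.38% and 6.25%, against 5.77% and 3.17% of all genes). Ppp1r3b, which brings protein phosphatase to glycogen, was higher in both named copies. Copy 110523785 stood at 11.16, 9.51 and 2.44 FPKM against 0.15, 0.5 and 0.33 (4.94 ± 1.36), and copy 110537139 at 3.0, 2.57 and 1.74 against 0.91, 0.78 and 0.5 (2.19 ± 0.43). Glycogenin, the primer of glycogen chains, was lower in copies 110489515 (GYG1, -1.63 ± 0.41) and 110527102 (Gyg1, -2.45 ± 0.63). Without R3h replicate 3 the differences were -1.38 and -2.07, no longer called (adjusted p = 0.0528 and 0.0566). Of 31 gluconeogenesis genes, GOT1 was higher (2.03 ± 0.35) and creb3l3b lower (-1.63 ± 0.40). PCK1 (110493880), the enzyme that commits carbon to glucose synthesis, stood at 17.82, 29.47 and 67.75 FPKM against 328.8, 241.08 and 267.09. It did not pass the test (-2.45 ± 1.17, adjusted p = 0.181). Its groups did not overlap, with R3h lower, as for 28.4% of all genes tested.

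HIF targets held 8 higher and 0 lower calls among 67 tested (11.9%, against 5.77% of all genes), with a median of 0.62 against -0.02. Cited2 (110522239), which competes with HIF for a coactivator, stood at 4.22, 2.22 and 0.87 FPKM against 0.16, 0.04 and 0.2 (4.63 ± 0.83, adjusted p = 0.0118). EGLN1 (110486061), the prolyl hydroxylase that marks HIF, stood at 6.72, 7.57 and 9.95 FPKM against 3.74, 3.36 and 3.72 (1.58 ± 0.30, adjusted p = 0.0129). P4HA1, a collagen prolyl hydroxylase, was higher at 1.07 against 0.137 FPKM (3.33 ± 0.85). BNIP3 and BNIP3L, receptors that send mitochondria to autophagy, made up 4 of the 8 calls. BNIP3 (100301704) stood at 44.07, 53.48 and 87.77 FPKM against 32.51, 25.72 and 31.21 (1.47 ± 0.31, adjusted p = 0.019). All 8 tested genes of these 2 names, a family chosen after its values were seen, had a positive difference. Scaled by library size alone, 1 of the 8 was called higher, where 1.54% of all genes were. Limma on log2(FPKM + 1) called 2 higher, where 2.95% of all genes were.

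Other genes tied to HIF gave mixed values. Hif1a (100135944) itself was lower, with 4.71, 6.36 and 8.8 FPKM against 29.33, 14.65 and 15.81 (-1.14 ± 0.30, adjusted p = 0.0353), though not with an offset for gene length (adjusted p = 0.0824). Egln3 (110497687; 1.14 ± 0.74, adjusted p = 0.318), vegfaa (110529696; 1.07 ± 0.50, adjusted p = 0.168) and ddit4 (110531799; -1.49 ± 1.12, adjusted p = 0.391) were not called, and their groups overlapped. The copies of IGFBP1, a binding protein of insulin-like growth factors, pointed in opposite directions and neither was called. IGFBP1 (101268901) stood at 6.34, 9.97 and 10.42 FPKM against 122.84, 133.56 and 110.91 (-3.38 ± 1.08, adjusted p = 0.0625). The groups of this copy did not overlap, with R3h lower, as for 28.4% of all genes tested. IGFBP1 (100136312) stood at 53.83, 79.26 and 0.74 FPKM against 20.34, 15.35 and 56.41, with R3h replicate 3 the lowest (0.94 ± 1.24, adjusted p = 0.64). The median of HIF targets was 0.15 with scaling by library size, against -0.45 over all genes. On log2(FPKM + 1) it was -0.05 against -0.31, with 5 members called higher and 5 lower. There, 2.95% of all genes were called higher and 13.6% lower. The 8 higher calls were 15 without R3h replicate 3 and 5 without R3h replicate 1, and 0, 0 and 4 without H3h replicates 1, 2 and 3. Over all 17502 genes tested, the higher calls in these fits were 1240, 429, 8, 88 and 429.

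Respiratory chain genes formed the larger energy group. Of 136 tested oxidative phosphorylation genes, 64 were higher and 0 lower (47.1%), with a median of 1.27 and 122 positive. Calls came from 32 of 63 subunits of complex I, which takes electrons from NADH, 7 of 20 of complex III, 13 of 23 of complex IV, the oxidase that reduces oxygen, and 12 of 30 of ATP synthase. NDUFB4 (110489575), of complex I, stood at 36.19, 19.79 and 42.48 FPKM against 10.12, 6.4 and 11.94 (2.25 ± 0.35, adjusted p = 0.0102). Without R3h replicate 3 the list had 51 higher calls and 0 lower (median 0.78, where 7.08% of all genes were higher). It had 48 without R3h replicate 1, 0 without H3h replicate 1, 11 without H3h replicate 2 and 38 without H3h replicate 3. Of all 17502 genes tested, these fits called 429, 8, 88 and 429 higher.

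The tricarboxylic acid cycle, which feeds that chain, had 4 higher and 0 lower calls of 46 and a median of 0.17. The higher share was 8.7%, against 5.77% of all genes, and scaled by library size alone there were 0 higher calls. Of the 4, 3 were subunits of succinate dehydrogenase, the enzyme shared with the chain. Among these, SDHC (110508324) was not called without R3h replicate 3 (adjusted p = 0.0596) or with the length offset (adjusted p = 0.0748). SDHC (110530767) stood at 10.07, 13.83 and 16.54 FPKM against 8.32, 6.29 and 8.54 (1.22 ± 0.26). Fatty acid oxidation had 5 higher and 1 lower call of 51 (9.8% and 1.96%, against 5.77% and 3.17% of all genes). It had 0 higher and 1 lower scaled by library size alone, and 0 higher and 3 lower by limma on log2(FPKM + 1). Etfb (110516750), which passes electrons from fatty acids to the chain, stood at 40.44, 31.81 and 40.81 FPKM against 22.2, 15.2 and 27.2 (1.26 ± 0.28, adjusted p = 0.0214).

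Ribosomal proteins had 94 higher and 0 lower calls of 179 (52.5%) and a median of 1.37, with 54 of 99 in the large subunit and 39 of 77 in the small. Rpl36a (110533861) stood at 122.13, 138.81 and 289.0 FPKM against 61.26, 46.67 and 36.25 (2.36 ± 0.37, adjusted p = 0.0102). Rpl27 (110538598) stood at 380.14, 375.44 and 431.4 FPKM against 174.44, 152.68 and 188.76 (1.63 ± 0.27, adjusted p = 0.0115). R3h replicate 3 was the highest library for the list, with a mean log2(FPKM + 1) of 8.28 against 7.19 and 7.39 in the other R3h libraries and 6.57 to 7.06 in H3h. Without it 69 calls were made (median 0.89), and without H3h replicates 1, 2 and 3 there were 0, 10 and 47. Such fits called 1240, 8, 88 and 429 of all 17502 genes higher. Several ribosomal protein genes have near-identical copies that may share reads, so single copies are less certain.

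The listed ribosome biogenesis genes had a negative median, unlike the ribosomal proteins themselves. That list does not hold rsl24d1, whose copies 110526432 and 100750226 were both higher (2.37 and 2.0). Of 69 ribosome biogenesis genes, 2 were higher and 6 lower (2.9% and 8.7%, against 5.77% and 3.17% of all genes). The median was -0.64 and 55 were negative. Limma on log2(FPKM + 1) called 14 lower and 0 higher, where 13.6% of all genes were lower and 2.95% higher. EdgeR in the 6 libraries without R3h replicate 3 called 18 lower, where 5.09% of all genes were lower. Noc2l (110532234), a nucleolar assembly factor, stood at 1.39, 2.53 and 1.48 FPKM against 14.34, 9.34 and 7.31 (-2.09 ± 0.47, adjusted p = 0.022). POLR1B (110526594), a large subunit of the polymerase that transcribes ribosomal RNA, differed by -2.49 ± 0.60, and pno1 (110491293) by 1.59 ± 0.37 with overlapping groups.

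Gene length moved with these lists. Count and FPKM together gave an implied length of 633 bases in the median ribosomal protein gene, 825 in oxidative phosphorylation, 2407 over all genes and 2487 in ribosome biogenesis. In the shortest 10% of all genes (98 to 969 bases) the median difference was 0.60 and 19.7% were called higher. In the longest 10% (5286 to 27953 bases) they were -0.31 and 1.09%. Within the shortest 10%, 90 of 155 ribosomal protein genes (58.1%) and 53 of 84 oxidative phosphorylation genes (63.1%) were called higher, against 202 of 1512 genes in neither list (13.4%).

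The shortest 10% exceeded the longest by 1.06, 0.27 and 0.76 (median log2 CPM relative to the H3h mean) in R3h replicates 1, 2 and 3, against -0.17, -0.11 and 0.27 in H3h. With an offset for this trend, chosen after seeing the data, 1278 genes were called (7.30%), 4.80% of all genes higher and 2.50% lower. Ribosomal proteins then had 47 higher calls (median 0.79) and oxidative phosphorylation 36 (median 0.76). On log2(FPKM + 1), where 2.95% of all genes were higher and 13.6% lower, they had 52 and 34 higher calls.

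**Figure D4:**
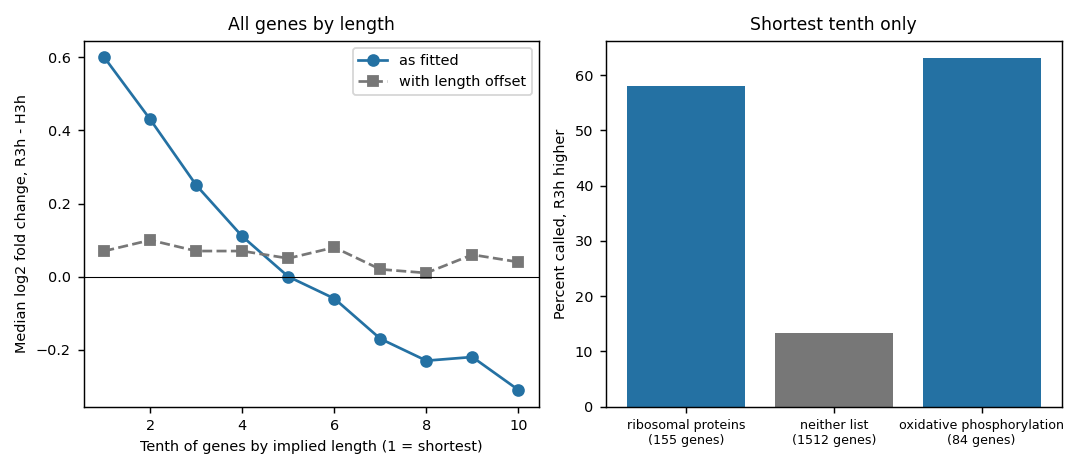
Left, median log2 fold change of all genes tested (y axis) by class of implied gene length, each with 10% of the genes (x axis, 1 the shortest), as fitted and with an offset for length. Right, percent called higher in R3h (y axis) within the shortest 10%, 58.1% for ribosomal proteins, 63.1% for oxidative phosphorylation and 13.4% for genes in neither list.

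Lists of liver metabolism and secretion had more higher than lower calls, but R3h replicate 3 had the lowest mean level of the 6 libraries in the 4 lists that follow. Amino acid catabolism had 11 higher and 0 lower calls of 87 (12.6%, median 0.82). Its mean log2(FPKM + 1) was 4.13, 4.38 and 3.27 in R3h and 3.74, 3.35 and 4.08 in H3h. Hgd and Gstz1, enzymes of tyrosine breakdown, were called at 2.71 ± 0.74 (with overlapping groups) and 1.69 ± 0.47, both chosen after their values were seen. Without R3h replicate 3 the list had 26 higher calls, without R3h replicate 1 it had 2, and without H3h replicates 1, 2 and 3 it had 0, 1 and 5. The same fits called 1240, 429, 8, 88 and 429 of all 17502 genes higher.

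Xenobiotic and bile acid genes had 9 higher and 0 lower calls of 62 (14.5%, median 0.76). There were 20 higher without R3h replicate 3, 3 without R3h replicate 1 and 0, 1 and 4 without H3h replicates 1, 2 and 3. Among all 17502 genes, those fits called 1240, 429, 8, 88 and 429 higher. The mean log2(FPKM + 1) was 3.94, 3.98 and 2.88 in R3h and 3.37, 2.92 and 3.6 in H3h. Besides cyp1a1, all 3 called copies of Nr0b2 were higher. Nr0b2 (110489598) stood at 2.0, 1.62 and 2.12 FPKM against 0.23, 0.0 and 0.16 (4.28 ± 0.95, adjusted p = 0.0218). Slc51a (110535440), a subunit of the transporter that exports bile acids to the blood, stood at 285.97, 232.9 and 136.71 FPKM against 58.2, 27.3 and 83.8 (2.42 ± 0.45, adjusted p = 0.0124). Cyp2k1 (110486989), a fish cytochrome P450, stood at 94.94, 87.09 and 93.02 FPKM against 31.62, 34.04 and 37.94 (1.83 ± 0.31).

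Hepatocyte markers had 6 higher and 0 lower calls of 47 (12.8%, median 0.78). Without R3h replicates 1 and 3 there were 3 and 10 higher, and without H3h replicates 1, 2 and 3 there were 0, 0 and 3. In these fits 429, 1240, 8, 88 and 429 of all 17502 genes were higher. Fabp10a (110517089), the fatty acid carrier of the fish liver, stood at 6607.42, 4132.67 and 2993.24 FPKM against 389.88, 762.37 and 744.23 (3.28 ± 0.67, adjusted p = 0.0167). TTR (110524641), the thyroid hormone carrier transthyretin, stood at 652.23, 456.26 and 1308.35 FPKM against 102.77, 85.32 and 144.64 (3.29 ± 0.60). Not every marker followed. The albumin gene alb1 (100499622) stood at 15018.75, 13802.17 and 413.19 FPKM against 2698.48, 3435.17 and 4904.21, so R3h replicate 3 was below H3h and the others above (1.83, adjusted p = 0.216). Hepatocyte markers were abundant in every library, as in the labelled tissue, and summed to 104000 to 129000 FPKM in R3h and 68800 to 96400 in H3h. By the mean over the list, which the most abundant genes do not carry, R3h replicate 3 was the lowest library. That mean log2(FPKM + 1) was 8.36, 8.65 and 6.85 in R3h and 7.75, 7.89 and 7.88 in H3h. In bulk liver, more cells of a type and more RNA per cell cannot be told apart.

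Complement had 5 higher and 1 lower call of 44 (11.4% and 2.27%, against 5.77% and 3.17% of all genes). C4bpa (110493702), a protein that restrains complement, differed by 2.18 ± 0.48, and MASP1 (100301640), a starter protease of the lectin pathway, by 1.54 ± 0.41. C7, of the membrane attack complex, was lower at 225 against 1090 FPKM (-1.86 ± 0.55), chosen after its values were seen. The list had 0 lower calls without R3h replicate 3, with the length offset and with DESeq2's size factors. The mean log2(FPKM + 1) of complement was 6.91, 7.30 and 5.61 in R3h and 6.52, 7.06 and 6.94 in H3h. Its median difference was 0.60 against -0.02 over all genes, and -0.17 against -0.31 on log2(FPKM + 1). Without R3h replicate 1 complement had 1 higher call, and without H3h replicates 1, 2 and 3 it had 0, 0 and 3. All 17502 genes together had 429, 8, 88 and 429 higher calls in these fits.

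**Figure D5:**
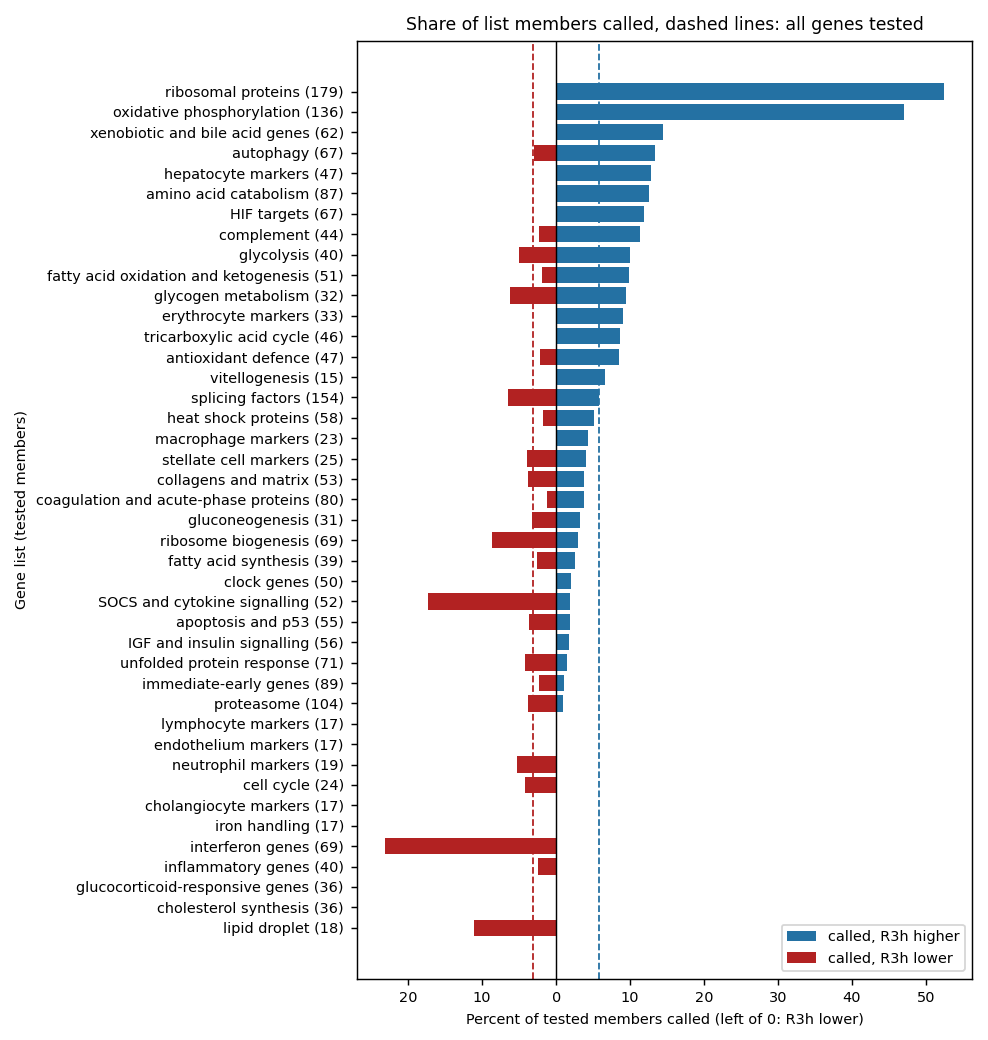
Percent of tested members called in each gene list (x axis, R3h lower to the left of 0 and R3h higher to the right; y axis, list with the number tested), with dashed lines at 5.77% higher and 3.17% lower over all genes. Ribosomal proteins reach 52.5% higher and interferon genes 23.2% lower.

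Interferon genes had 0 higher and 16 lower calls of 69 (23.2%, against 3.17% of all genes), with a median of -1.34 and 60 negative. Of the 16, 9 were copies of TRIM25. That name is carried by 28 of the 69 tested genes (24 negative, median -1.16), so it weighs on the values of the list. TRIM25 (110503178) stood at 0.77, 0.64 and 0.98 FPKM against 11.61, 5.59 and 11.16 (-3.10 ± 0.56, adjusted p = 0.0118). TRIM25 (110503177) differed by -3.19 ± 0.62. IRF3, the transcription factor that starts interferon production, was lower in both called copies (100750228, -2.64 ± 0.77, and 100750229, -1.69 ± 0.46), chosen after their values were seen. With the length offset neither IRF3 copy was called (adjusted p = 0.0571 and 0.0523), and without R3h replicate 3 copy 100750229 was not (adjusted p = 0.0693). Copies with one name share sequence and may share reads, so 9 TRIM25 calls are not 9 independent results.

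In a pair of antiviral genes the R3h libraries disagreed. The gene mx1 (100335041), for a GTPase that blocks viruses, stood at 0.56, 0.2 and 28.01 FPKM in R3h against 71.43, 24.35 and 53.72 in H3h (-1.93 ± 1.42, adjusted p = 0.382). The gene rsad2 (100135876), for the antiviral enzyme viperin, stood at 2.11, 0.78 and 56.56 FPKM against 104.46, 19.02 and 22.39 (-0.78 ± 1.31, adjusted p = 0.721). R3h replicates 1 and 2 were low and replicate 3 lay within the H3h range for both, which were chosen after their values were seen. Over the list, the mean log2(FPKM + 1) was 1.44, 1.27 and 2.57 in R3h and 4.07, 2.90 and 3.34 in H3h. It was 2.99 to 3.67 in N. Without R3h replicate 3, 35 interferon genes were lower (median -2.58, where 5.44% of all genes were lower). Without R3h replicate 1 there were 8, and without H3h replicates 1, 2 and 3 there were 0, 6 and 10. Lower calls over all 17502 genes were 115, 3, 61 and 260 in these fits.

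SOCS and cytokine signalling had 1 higher and 9 lower calls of 52 (17.3% lower, median -1.08), 4 of them also counted among the interferon genes. Socs3 (110499415), the feedback inhibitor of cytokine receptors, stood at 0.82, 2.23 and 0.7 FPKM against 18.93, 31.38 and 10.68 (-3.67 ± 0.76, adjusted p = 0.0172). The receptor-associated kinases jak1 (-2.59 ± 0.66) and TYK2 (-1.73 ± 0.40) were lower too, chosen after their values were seen, beside IL6ST. Without R3h replicates 1, 2 and 3 the lower calls were 2, 9 and 12, and without H3h replicates 1, 2 and 3 they were 0, 1 and 5. Those over all 17502 genes were 115, 1337 and 952, and 3, 61 and 260.

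Inflammatory genes had 0 higher and 1 lower call of 40 (2.5% lower, against 3.17% of all genes) and a median of -0.86. Lower calls were 4 without R3h replicate 3, 7 in the 6 libraries without it and 10 by limma on log2(FPKM + 1). Of all genes, 5.44%, 5.09% and 13.6% were lower in these settings. VCAM1 (110486368), an adhesion molecule for leukocytes, stood at 1.3, 1.55 and 0.63 FPKM against 17.06, 12.23 and 4.45 (-2.82 ± 0.71, adjusted p = 0.0306). Without R3h replicate 3 the difference of VCAM1 was -2.49, no longer called (adjusted p = 0.0558). The chemokine ccl19a.1 (110525193) stood at 3.75, 1.5 and 55.68 FPKM against 1741.8, 363.47 and 291.68 (-4.78 ± 1.54, adjusted p = 0.0643), and tnf (100136064) at 0.08, 0.29 and 0.21 against 5.16, 10.59 and 0.98 (-4.48 ± 1.48, adjusted p = 0.0713). Neither passed. Their groups did not overlap, with R3h lower, which was so for 28.4% of all genes tested.

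Immediate-early genes, the first transcripts after many stimuli, had 71 of 89 members negative and a median of -1.09, with 1 higher and 2 lower calls. These calls were 1.12% and 2.25% of the list, against 5.77% and 3.17% of all genes. Limma on log2(FPKM + 1) called 16 lower, where 13.6% of all genes were lower. EdgeR in the 6 libraries without R3h replicate 3 called 14 lower, where 5.09% of all genes were lower. PLK2 (110523192) was lower (-3.59 ± 0.77) and Klf10 (110511366) higher at 1.3, 6.23 and 1.26 FPKM against 0.16 to 0.17 (4.46 ± 0.92, adjusted p = 0.0172). Glucocorticoid-responsive genes had 0 calls of 36 (median -0.50, with 0 higher and 7 lower by limma, where 13.6% of all genes were lower). FKBP5 (110494097; -0.01 ± 0.64), Tsc22d3 (110504506; 0.34 ± 0.53), DUSP1 (110504465; -1.71 ± 1.05) and Per1 (110509930; -1.10 ± 0.47) had an adjusted p between 0.139 and 0.995. Cholesterol synthesis had 0 calls of 36, with 32 negative, a median of -1.04 and 8 lower by limma (13.6% of all genes). Its FDFT1 (110522339), squalene synthase, stood at 2.84, 1.31 and 4.87 FPKM against 11.13, 62.15 and 13.92 (-2.92 ± 0.91, adjusted p = 0.0587).

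Protein quality genes gave scattered calls. Of all genes tested, 5.77% were called higher and 3.17% lower. In the unfolded protein response, 1 gene was higher and 3 lower of 71 (1.41% and 4.23%), with a median of -0.05. Atf4 (110494903), the transcription factor of the amino acid and stress response, stood at 4.26, 2.7 and 2.51 FPKM against 43.51, 4.56 and 61.18 (-3.03 ± 0.68, adjusted p = 0.0223), and its target ASNS (110488144), asparagine synthetase, differed by -2.14 ± 0.48. The chaperone hspa5 (100135840) did not pass (-0.03 ± 0.60, adjusted p = 0.982). Of 104 proteasome genes 1 was higher and 4 lower (0.962% and 3.85%). Psma7 (110530418), of the core, differed by 1.83 ± 0.36 and PSMD2 (110504101), of the cap, by -1.70 ± 0.38. Heat shock proteins had 3 higher and 1 lower call of 58 (5.17% and 1.72%), both shares below those of all genes. HSPA4 (110504537) stood at 0.31, 0.31 and 0.26 FPKM against 5.83, 4.97 and 2.69 (-3.48 ± 0.71).

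Autophagy had 9 higher and 2 lower calls of 67 (13.4% and 2.99%, against 5.77% and 3.17% of all genes). Of the 9, 4 were the BNIP3 and BNIP3L genes counted among HIF targets. GABARAPL1 (110537275), which coats the growing autophagosome, stood at 33.82, 31.17 and 34.72 FPKM against 10.9, 15.86 and 12.27 (1.76 ± 0.39, adjusted p = 0.0221). ATG9A (110528796), a membrane protein of autophagosome formation, was lower (-3.47 ± 0.63), as was the cargo receptor Sqstm1 at 44.4 against 392 FPKM (-2.73 ± 0.76), chosen after its values were seen. Without R3h replicate 1 there were 3 higher calls, and without H3h replicates 1, 2 and 3 there were 0, 0 and 3. Higher calls over all 17502 genes were then 429, 8, 88 and 429. The autophagy median was 0.32 against -0.02 over all genes, and -0.15 against -0.31 on log2(FPKM + 1). Antioxidant genes had 4 higher and 1 lower call of 47 (8.51% and 2.13%, against the same shares of all genes). The higher ones included mt2 and the peroxiredoxins prdx1 (1.63 ± 0.35) and PRDX5 (1.82 ± 0.40). Of 39 fatty acid synthesis genes, Acly (110486250), which makes cytosolic acetyl-CoA, was lower at 0.63, 2.79 and 0.38 FPKM against 11.56, 18.11 and 7.19 (-2.94 ± 0.67), and Elovl2 (101268971), a fatty acid elongase, higher (3.63 ± 1.0). Hormone-sensitive lipase (LIPE) was lower in 2 of its 3 tested copies (100505414, -3.90 ± 0.65, and 100505413, -1.73 ± 0.48).

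Markers of other cell types differed between the groups in part. The globins and other erythrocyte markers had 3 higher calls of 33 (9.09%, against 5.77% of all genes) and a median of 1.49. Their summed level was 375 to 1540 FPKM in R3h and 394 to 765 in H3h. Hbb1 (100136207), a beta globin, stood at 19.76, 64.53 and 157.51 FPKM against 6.8, 12.38 and 20.59 (2.96 ± 0.75, adjusted p = 0.0311). R3h replicate 1 was within the H3h range, and without R3h replicate 3 no erythrocyte marker was called. Neutrophil markers had 1 lower call of 19, MPO. Their mean log2(FPKM + 1) was 2.12, 2.18 and 2.25 in R3h and 3.25, 3.54 and 3.50 in H3h. Their summed level, 8900 to 70200 FPKM in R3h and 34000 to 38600 in H3h, was nearly all Lect2 (100135969), a transcript of the liver itself, at 8844.09 to 69245.29 FPKM in R3h.

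Lymphocyte markers had 0 calls of 17 (median -0.48), and 0 higher and 4 lower by limma, where 13.6% of all genes were lower. Their summed level was 34.1 to 38.0 FPKM in R3h and 54.2 to 59.2 in H3h. Thrombocyte markers had 0 calls of 5 (59.8 to 234 FPKM against 313 to 419). That sum was nearly all F5 (110501366), a coagulation factor that the liver also makes, at 55.0 to 229.38 FPKM in R3h and 303.53 to 411.92 in H3h. Macrophage markers had 1 higher call of 23, Aif1 (3.04 ± 0.86), and stellate cell markers 1 higher, LRAT (3.74 ± 1.02), and 1 lower, ACTA2 (-2.30 ± 0.56), of 25. Cholangiocyte and endothelium markers had 0 calls of 17 each. No tested marker in any of these lists was without reads in all 6 libraries. The part of blood and immune cells in the lower interferon and cytokine genes and in the higher globins was not tested.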

How the data were processed

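Liver RNA of 15 libraries was sequenced. Each gene has a raw count and an FPKM value in the authors' deposited table, per the file headers. TopHat2 2.1.1 and Bowtie2 2.2.8 are named in the submitters' processing notes. The sources used here name no counting tool, annotation or build, and do not say whether strand was used. Names are those of the deposited table (29141 genes) or, failing that, from RefSeq (assembly USDA_OmykA_1.1), where 31271 of the 34965 identifiers were found.

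Counts were fitted with edgeR 4.0.16 (R 4.3.3; TMM scaling, 5 group means over 15 libraries, quasi-likelihood F-test, two-sided, Benjamini-Hochberg). The genes tested held at least 99.0% of each library's counts. SE was approximated from F as the size of the log2 difference over its square root. Alternatives used limma 3.58.1 on log2(FPKM + 1), with pseudocount 1 or 0.1, and DESeq2 1.42.0. The procedure was tested on simulated data. Counting error is small beside replicate spread at 53.5 to 70.4 M counts per library.

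Named were the 12 genes with the smallest p and the 8 largest called fold changes in each direction (named genes, 5 FPKM or more on average in the higher group, groups not overlapping), the 3 members of each of 46 lists with the smallest p, and 12 genes always followed, of which some uncalled members are left out. Some genes that the rule names are not reported here. The comparison, lists and rule were chosen with earlier results of these data known.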

Additional observations from a re-analysis of the deposited data

How the results depend on the processing

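The number of calls depended on the fit. The 1564 calls (1009 higher, 555 lower) became 0 with only the 6 libraries (0 higher, 0 lower), 868 with library size only (270, 598), 3447 with DESeq2 (1987, 1460), 2902 with limma on log2(FPKM + 1) (517, 2385), 2538 on log2(FPKM + 0.1) (475, 2063) and 4628 with limma-voom and library weights (2320, 2308). Without a filter 1155 were called and with a mean FPKM of at least 5 1002, of which 576 were higher and 426 lower. DESeq2's size factors in edgeR gave 1621, and filterByExpr 1242. Leaving out single libraries gave 11 to 2873 calls, 8 to 1536 higher and 3 to 1337 lower. Without R3h replicate 3 in the 6 libraries, chosen after seeing the data, 1836 were called (945, 891), and 823 of these shared gene and direction with the 1564. The offset for gene length gave 1278 (840, 438), with 1070 shared.

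No pairing by replicate number was seen, as the deviations of same-numbered R3h and H3h libraries correlated by -0.24, 0.18 and -0.15. With 3 libraries a group, these values cannot settle whether the samples were paired. With the replicate block the count was 1239 (781, 458) in 15 libraries and 0 in 6 libraries. No named gene that was called changed direction under any setting run. Of 115 called named genes, 115 stayed called with DESeq2, 105 without R3h replicate 3, 105 with the length offset and 7 without H3h replicate 1. With 3 libraries a group, differences below the spread of R3h were not detectable.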

Other observations

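Some gene families grouped by name also had called members in R3h against H3h, where 5.77% of all genes were called higher and 3.17% lower. Their called members lay outside the lists above except Gstz1, GSTP1, Ugt2a1 (110500636) and UGT2A1 (110536871), which were already counted there. The families were chosen after their values were seen, so their counts are descriptions. Of 33 tested genes named PARP, ADP-ribosyltransferases of which several restrict viruses in mammals, 8 were lower and 0 higher (median -1.46), namely 4 copies of PARP12, 3 of PARP14 and PARP4. Parp12 (110501029) averaged 0.09 FPKM in R3h and 4.75 in H3h (-5.28 ± 0.86, edgeR adjusted p = 0.0115). Unconventional myosins, which move along actin, had 5 lower and 0 higher calls of 24. Cullins, scaffolds of ubiquitin ligases, had 3 lower and 0 higher of 19, namely CUL2, CUL3 and Cul1 at -1.17 ± 0.34, -1.13 ± 0.26 and -1.80 ± 0.41.

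Enzymes that conjugate foreign and waste compounds were among the higher genes. Glutathione transferases had 5 higher and 0 lower calls of 12, among them GSTM3 at 10.8 against 1.10 FPKM (3.69 ± 0.86) and both copies of GSTK1 (2.47 ± 0.49 and 1.89 ± 0.45). Sulfotransferases had 3 of 13, with Sult2b1 at 46.6 against 6.23 FPKM (3.37 ± 0.61) and the sult1st2 copies at 3.24 ± 0.71 and 3.16 ± 0.62. UDP-glucuronosyltransferases had 4 of 13, with UGT2B13 at 212 against 53.1 FPKM (2.45 ± 0.58). The other called members, Ugt2a1 (110500636), ugt3 and UGT2A1 (110536871), had overlapping groups, with R3h replicate 3 inside the H3h range. Genes of mitochondrial protein import named timm had 4 of 24 and 0 lower, the timm8a copies each at 2.36 (SE 0.37 and 0.43). The other calls, timm13 and timm21, were lost without R3h replicate 3 (edgeR adjusted p = 0.122 and 0.0603). Ragulator subunits, which anchor nutrient sensing to lysosomes, had 3 higher of 9, with lamtor2 at 13.4 against 4.62 FPKM (1.98 ± 0.37). Of these calls, LAMTOR3 had overlapping groups and was lost without R3h replicate 3 (edgeR adjusted p = 0.082).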
